A study of Mus musculus with 23 samples.

Results

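Genes of protein folding in the endoplasmic reticulum (ER) and of the unfolded protein response were followed across 23 single neurons of the mouse arcuate hypothalamus. They were Hspa5, Hsp90b1, Sdf2l1, Calr, Canx, Pdia3, Pdia4, Xbp1, Atf4 and Ddit3. The set was chosen by name, as known folding and stress response genes, and made up 10 of the 23373 genes in the expression table. The question put to each gene was how its level related, from cell to cell, to the summed level of 8 neuropeptide precursor genes, namely Pomc, Cartpt, Sst, Npy, Kiss1, Tac2, Pdyn and Gal.

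The cells came from 2 young adult male mice of mixed background that carried vGLUT2-IRES-Cre together with loxSTOPlox-L10-GFP. In these animals Slc17a6, which encodes the glutamate transporter VGLUT2, drives Cre, and every cell in which Cre was ever active keeps a GFP fused to the ribosomal protein L10. The micro-dissected arcuate nucleus was dissociated with papain, GFP-positive cells were sorted manually, and the polyadenylated RNA of each cell was amplified by SmartSeq2 and sequenced as 1 library. All cells formed a single group with no treatment or control. The labels do not tie cells to mice, and 15 titles begin with JCb5.2 (cells 1 to 15) and 8 with JCb6 (cells 16 to 23), a difference that the labels do not explain.

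Secreted and membrane proteins, neuropeptide precursors among them, enter the ER as unfolded chains and are folded there by chaperones, lectins and disulfide isomerases. When unfolded chains build up, membrane sensors raise the amount of active XBP1, ATF4 and cleaved ATF6, and these factors switch on genes of folding, of degradation and, under lasting stress, of cell death. Peptide-secreting neurons are known for a well developed ER.

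Cells were not replicates of a condition, so every value below is a description of these cells and no p-value was computed. Levels are given in FPKM, fragments scaled to transcript length and to all mapped fragments of the library. Summed FPKM per cell ran from 379230 to 687163, and a median of 7079 genes reached 1 FPKM. Relative sequencing depth, estimated from the steps between low FPKM values, differed by 4.21-fold between the shallowest and the deepest cell. The neuronal genes Uchl1, Stmn2, Snap25, Tubb3 and Meg3 reached 1 FPKM in all 23 cells and Slc17a6 in 22. Cell 17 stood apart with 4049 genes at 1 FPKM, the fewest. Cells 20 and 23 had at most 0.127 and 0.143 FPKM of any of 4 Y-linked genes, against a median of 21.3 over all cells, although the labels give male donors. Values without these cells are given beside the main relations.

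Many folding genes carry an ER stress element in the promoter, a pair of short motifs, CCAAT and CCACG, separated by 9 bases of any kind and bound by NF-Y together with ATF6 or XBP1. The promoters in RefSeq (build GRCm38.p6, the same build as mm10; 250 bases before to 50 after the gene start) were searched for it on both strands. All 10 genes had a promoter entry. The sites below are shown because they divide the set by a sequence feature. The element is known from promoters of folding genes such as Hspa5, so its share among genes chosen as folding genes is not independent of that choice. Capitals mark the letters that match the 10 fixed letters of the element, and each site is written 5′ to 3′ on the strand that carries it.

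Hspa5: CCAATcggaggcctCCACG
Hsp90b1, far site: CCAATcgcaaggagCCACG
Hsp90b1, near site: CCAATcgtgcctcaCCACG
Hsp90b1, incomplete site: CCAATcggaactgtCCAgG
Calr: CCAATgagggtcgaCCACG
Canx: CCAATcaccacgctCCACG
Pdia3: CCAATcggcggctgCCACa
Pdia4: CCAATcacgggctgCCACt
Ddit3: CCAATcagaaagcggCACG

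A complete element was found in 4 of the 10 promoters, those of Hspa5, Hsp90b1, Calr and Canx, and in 39 of all 32851 promoters (0.119%). Hsp90b1 held 2 complete copies, 1 on each strand. With 1 of the 10 fixed letters allowed to differ, 7 of the 10 promoters had a match, against 1.50% of all promoters. Xbp1, Atf4 and Sdf2l1 had no match in this window, which says only that these letters are not there. The Hspa5 site lay at chr2:34772025-34772043, 65 to 47 bases before the start, and the Pdia3 site at chr2:121413873-121413891, 29 to 11 bases before it, both on the strand of the gene. The complete Hsp90b1 sites lay at chr10:86705638-86705656 on the gene strand and at chr10:86705533-86705551 on the other, with the incomplete one between them at chr10:86705598-86705616, also on the other strand. The Canx site was at chr11:50325800-50325818 on the gene strand. The Calr site was at chr8:84847075-84847093, the Pdia4 site at chr6:47813602-47813620 and the Ddit3 site at chr10:127290702-127290720, each on the strand opposite to the gene.

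The ER chaperones Hspa5 and Hsp90b1 were the most abundant of the set and were present in every cell. Hspa5 (chromosome 2, 34772090 to 34776529, plus strand) encodes BiP, the main HSP70 chaperone of the ER, which also holds the stress sensors inactive. Its FPKM was lowest in cell 17 at 137, had a median of 363 and was highest in cell 3 at 1154. Hsp90b1 (chromosome 10, 86690841 to 86705444, minus strand) encodes GRP94, the HSP90 of the ER. It ran from 62.3 FPKM in cell 12 through a median of 241 to 443 in cell 3, so that cell 3 was highest for both chaperones. The Hsp90b1 locus overlaps 1810014B01Rik on the opposite strand, and whether counting used strand is not given in the sources used here. Sdf2l1 (chromosome 16, 17130138 to 17132383, minus strand), a partner of the BiP and DNAJB11 folding cycle, was patchier. It was listed at 0 in cells 10 and 22, had a median of 11.9 FPKM and reached 338 in cell 17, the cell with the lowest Hspa5. Sdf2l1 was at or above 1 FPKM in 18 of 23 cells and had the widest spread of the set, with an SD of 2.51 on the log2(FPKM + 1) scale against 0.84 for Hspa5 and 0.72 for Hsp90b1.

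The lectin chaperones, which hold newly glycosylated proteins during folding, were at intermediate levels. Calr (chromosome 8, 84842088 to 84846931, minus strand) encodes calreticulin, the soluble one. It had a median of 61.7 FPKM and a highest value of 179 in cell 8, and it fell below 1 FPKM in a single cell, at 0.845 in cell 10. Canx (chromosome 11, 50293957 to 50325673, minus strand) encodes calnexin, the membrane-bound one, and ran from 2.97 FPKM in cell 23 through a median of 28.4 to 57.8 in cell 6. Apart from those single cells, Calr was at or above 11.5 FPKM and Canx at or above 10.2 in the other 22.

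The disulfide isomerases differed in how many cells had them. Pdia3 (chromosome 2, 121413902 to 121438686, plus strand) encodes ERp57, which works with calreticulin and calnexin on glycoproteins. Its median was 118 FPKM, its highest value 308 in cell 10 and its lowest 4.17 in cell 17, and the other 22 cells lay at or above 58.1. Pdia4 (chromosome 6, 47796141 to 47813512, minus strand) encodes ERp72, a related isomerase. It was at or above 1 FPKM in 16 of 23 cells, with a lowest value of 0.106 in cell 23, a median of 18.7 and a highest value of 84.4 in cell 6. Cells 4, 10, 16, 17, 19, 20 and 23 were below 1 FPKM, and among them cells 16, 19 and 20 were high in Hspa5, at 833, 641 and 799 FPKM.

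The transcription factors of the stress response varied widely between cells. Xbp1 (chromosome 11, 5520641 to 5525993, plus strand) encodes the factor whose mRNA is spliced by the sensor IRE1; a gene-level FPKM does not separate the spliced from the unspliced form. Xbp1 ran from 1.02 FPKM in cell 7 through a median of 52.7 to 271 in cell 20. Atf4 (chromosome 15, 80255184 to 80257541, plus strand), the factor translated when the eIF2α kinases are active, had a median of 25.3 FPKM. It was lowest at 0.190 in cell 3, the cell with the highest Hspa5, and highest at 138 in cell 20, so that cell 20 was highest for both factors. Ddit3 (chromosome 10, 127290793 to 127296288, plus strand) encodes CHOP, the factor linked to cell death under lasting stress, and overlaps Mars on the opposite strand. Its FPKM was lowest in cell 2 at 0.178, had a median of 8.30 and was highest in cell 17 at 98.7.

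**Figure D1:**
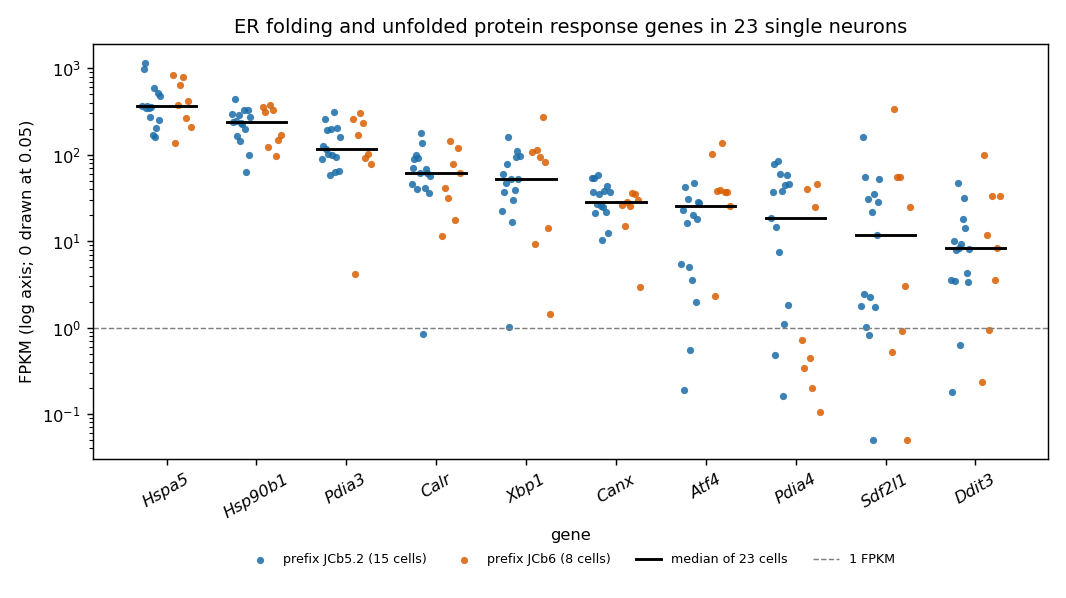
FPKM of each of the 10 genes (horizontal axis, in order of the median) in each of 23 cells, on a log axis with values of 0 drawn at 0.05. Points are cells, coloured by title prefix, black bars are medians and the dashed line is 1 FPKM; Hspa5, Hsp90b1, Pdia3, Xbp1 and Canx lie above the line in all 23 cells, while Pdia4, Sdf2l1 and Ddit3 spread to both sides of it.

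Of the 10 genes, 5 were at or above 1 FPKM in all 23 cells: Hspa5, Hsp90b1, Pdia3, Canx and Xbp1. Of all genes in the table, 7.20% were. At a threshold of 5 FPKM only Hspa5 and Hsp90b1 remained, 2 of 10, beside 4.02% of all genes. All 10 genes were at or above 1 FPKM in 11 cells, 9 in 7 cells, 8 in cells 8, 19 and 20, and 7 in cells 10 and 16. Ranked by median FPKM the order was Hspa5, Hsp90b1, Pdia3, Calr, Xbp1, Canx, Atf4, Pdia4, Sdf2l1 and Ddit3. Hspa5 exceeded Hsp90b1 in 20 of 23 cells, Hsp90b1 exceeded Pdia3 in 20 and Pdia3 exceeded Calr in 19. Further down the order the neighbours were not separated beyond their spread: Calr exceeded Xbp1 in 12 cells, Canx exceeded Atf4 in 13, Atf4 exceeded Pdia4 in 11, Pdia4 exceeded Sdf2l1 in 13 and Sdf2l1 exceeded Ddit3 in 12. Xbp1 exceeded Canx in 17. The middle 50% of cells overlapped for every pair of neighbours except Pdia3 and Calr. The median SD of the 10 genes on the log2(FPKM + 1) scale was 1.54, and that of the 6482 genes at 1 FPKM in 12 or more cells was 1.50.

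The summed FPKM of the 8 peptide genes differed 59.9-fold between cells, against 8.40-fold for Hspa5. It was 609.9 in cell 1, had a median of 4217 and reached 36510 in cell 6. As a share of all FPKM in a cell it ran from 0.122% in cell 1 to 6.58% in cell 15, and was 6.18% in cell 6. Cartpt was the highest of the 8 in 11 cells, Pomc in 4, Sst in 3, Kiss1 in 2, Tac2 in 2 and Pdyn in 1. Cells with the JCb5.2 prefix covered the whole range, with a median of 6299, and cells with the JCb6 prefix ran from 1321 to 5500 with a median of 2614.

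Most of the folding genes showed little relation to the peptide sum. Over the 23 cells, which share 2 donors, a library method and unequal depth, Spearman's rho was 0.14 for Hspa5, 0.21 for Hsp90b1 and 0.14 for Sdf2l1. It was 0.07 for Calr and 0.04 for Canx, the lectin chaperones. The isomerases Pdia3 and Pdia4 had rho values of 0.31 and 0.22. Atf4 and Ddit3 were at -0.06 and 0.05. The median rho of the 10 genes was 0.14, and that of the 6482 genes at 1 FPKM in 12 or more cells was -0.01. The sign was mostly positive: rho was above 0 for 9 of the 10 genes, beside 47.3% of the 6482 genes. That count was 10 in the JCb5.2 cells (48.9% of genes) and 8 in the JCb6 cells (40.1%). It was 5 without cells 4 and 6, beside 43.7%. The cells with the most peptide show how weak the relation was for BiP: cells 6 and 4, at 36510 and 36221 FPKM of peptide, had 349 and 343 FPKM of Hspa5, near its median, while cell 1, with the least peptide, had 363. Pearson's r of the log2 values for Hspa5 was 0.09, and 0.14 without cells 4 and 6, the cells farthest from the median peptide sum. The peptide sum itself moved little with relative depth, at a rho of 0.05.

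Xbp1 had the closest relation to the peptide sum, with a rho of 0.46. It was the only 1 of the 10 genes at or above 0.4, a level that 2.96% of the 6482 genes reached. In cell 7, which had 922 FPKM of peptide, Xbp1 was at 1.02 FPKM, and in cell 6 it was at 158. Other cells followed the relation less: cell 4, with 36221 FPKM of peptide, had 46.7, under the median of 52.7. Cell 1, with the least peptide, had 22.4 FPKM of Xbp1, and cell 18, with 1321 FPKM of peptide, had 114. Cell 20, with 5500 FPKM of peptide, had the highest Xbp1, and cell 12, with 32273, had 93.9. Pearson's r of the log2 values was 0.48, and 0.47 without cells 4 and 6. The value was 0.50 given relative depth and 0.54 given the title prefix. It was 0.47 when Cartpt was left out of the sum and 0.51 when Oxt, Avp and Agrp were added to it. Leaving out each cell in turn gave 0.39 to 0.59, and the value fell just under 0.4 without cell 6 or cell 7, at 0.39 in both cases. It was 0.44 without cells 20 and 23 together.

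Split by title prefix, Xbp1 had a rho of 0.78 with the peptide sum over the 15 JCb5.2 cells, and it was again the only 1 of 10 genes at 0.4 or more, with 8.61% of genes at that level and 0.139% of genes above 0.78. Among the 8 cells with the JCb6 prefix, where the peptide sum covered a narrower range, rho of Xbp1 was 0.19. In those 8 cells Hsp90b1 was the 1 gene at or above 0.4, at 0.48, against 11.2% of genes, and Pdia4 the 1 gene at or below -0.4, at -0.55, against 23.3%. Pdia4 reached 1 FPKM in only 3 of these 8 cells, with a median of 0.581, so its rho there mostly ranks values under 1 FPKM. The difference between prefixes was not tested. Pdia3 had a rho of 0.37 in the JCb5.2 cells and 0.02 in the JCb6 cells, and Pdia4 had 0.31 in the JCb5.2 cells.

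**Figure D2:**
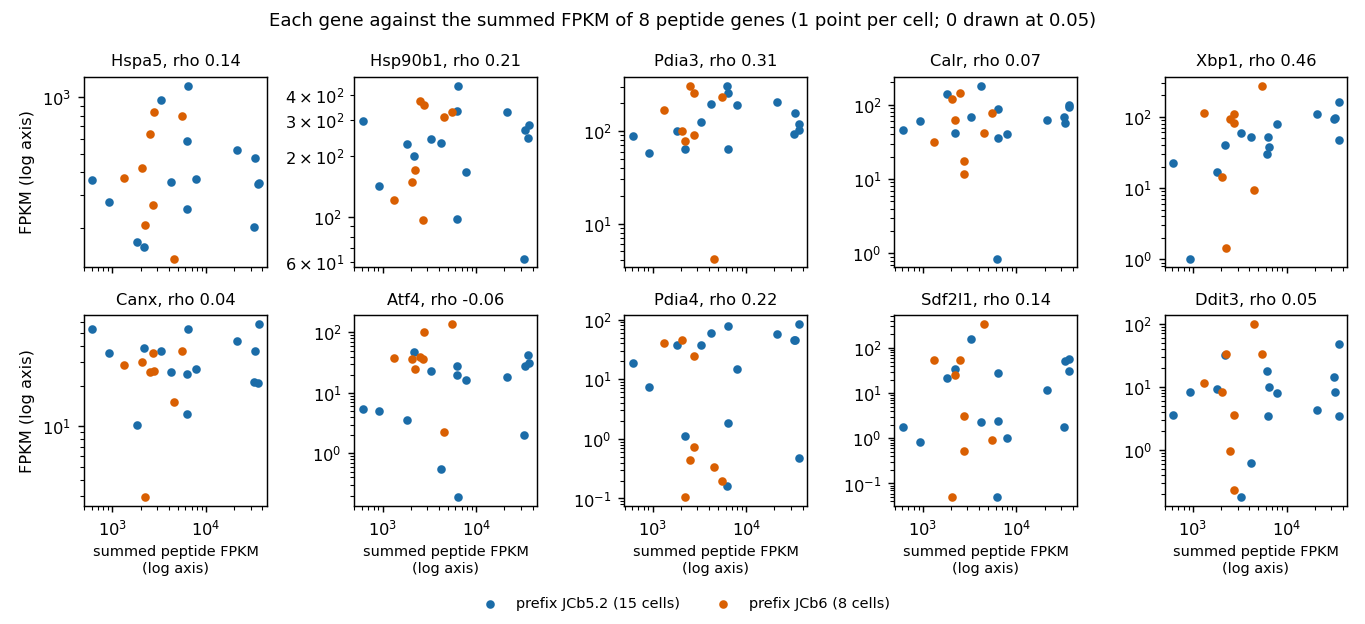
FPKM of each of the 10 genes (vertical axes, log) against the summed FPKM of 8 peptide genes (horizontal axes, log), 1 point per cell, coloured by title prefix, with values of 0 drawn at 0.05. Xbp1 has a rho of 0.46 and the other 9 genes lie between -0.06 and 0.31.

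Markers of other cell types were set beside this relation. The summed FPKM of 5 oligodendrocyte markers had a rho of -0.78 with the peptide sum and -0.43 with Xbp1. The sum ran from 0.0341 to 54.6 FPKM, from 0.0341 to 53.4 in the JCb5.2 cells and from 0.741 to 54.6 in the JCb6 cells. Mbp reached 1 FPKM in 10 cells, Mag in 5 and Cldn11 in 3, while the defining gene Mog was listed at 0 in all 23 cells. The sum of 5 tanycyte and ependymal markers had a rho of 0.48 with the peptide sum and 0.27 with Xbp1. With the peptide sum it was 0.66 in the JCb5.2 cells and -0.45 in the JCb6 cells. Of the 5, 4 reached 1 FPKM in some cell, only Vim in 12 or more, and Rax was listed at 0 in all. The sum of 6 astrocyte markers had a rho of 0.16 with the peptide sum and -0.06 with Xbp1. It reached 166 FPKM in cell 12, where Gfap was at 165. In the JCb6 cells, where it was at most 1.16 FPKM, its rho with the peptide sum was -0.90. The sum of 4 haemoglobin genes, the red blood cell markers, ran from 3.45 to 2395 FPKM with a median of 112. All 4 reached 1 FPKM in some cell, Hba-a2 in 22. Their sum had a rho of -0.36 with the peptide sum, -0.01 with Xbp1 and 0.32 with Hspa5. By gene, rho with Hspa5 was 0.33 for Hba-a2, 0.34 for Hbb-b1, 0.27 for Hbb-b2 and 0.56 for Hba-a1. Hba-a1, a near-identical copy of Hba-a2, had a median of 0.00648 FPKM and reached 1 FPKM in 10 cells. The part of these transcripts in the relations of Xbp1 and Hspa5 was not tested.

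Between the genes themselves, the closest relation was that of Hspa5 with Pdia3, at a rho of 0.83. Each was the gene with the highest rho to the other among genes at 1 FPKM in 12 or more cells with loci of at least 300 bp. Hspa5 and Pdia3 were lowest together in cell 17, at 137 and 4.17 FPKM, and both were high in cell 16, at 833 and 255, and in cell 3, at 1154 and 258. The rho was 0.79 in the JCb5.2 cells, 0.90 in the JCb6 cells, 0.81 without cell 17, 0.82 without cells 20 and 23, and 0.81 to 0.87 with each cell left out in turn.

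Hsp90b1 completed a trio of abundant folding genes. Its rho was 0.60 with Hspa5 and 0.62 with Pdia3. Pearson's r of the log2 values was lower, at 0.54 with Hspa5 and 0.25 with Pdia3, and it was 0.72 for Hspa5 with Pdia3. By rho, Hspa5 had 2 of the other 9 genes at or above 0.6, a level reached by 1.03% of 6481 genes. The value with Hsp90b1 lay at that limit: with each cell left out in turn it ran from 0.54 without cell 3 to 0.70 without cell 17, and it was under 0.6 without any 1 of cells 3, 7, 8, 10, 12, 13, 14, 15, 16, 19, 20 or 21. Hsp90b1 with Pdia3 ran from 0.56 without cell 13 or cell 20 to 0.72 without cell 17. Without cells 20 and 23 together both lay under 0.6, at 0.58 for each pair. Hspa5 had 4 of the 9 at or above 0.4, with Canx at 0.45 and Xbp1 at 0.41, against 9.07% of genes. These were also under 0.4 in some settings: Hspa5 with Canx was 0.38 without cell 17, 0.40 (just under the limit) without cell 23 and 0.28 given relative depth, and Hspa5 with Xbp1 was 0.34 without cell 17 and 0.36 without cell 23. The trio also moved with relative depth: Hsp90b1 had a rho of 0.62 with it, Hspa5 0.53, Xbp1 0.50, Pdia3 0.48 and Canx 0.44. That made 5 of the 10 genes at or above 0.4, against 7.95% of genes. Given relative depth, Hspa5 with Pdia3 remained at 0.78, while Hspa5 with Hsp90b1 was at 0.41 and Hsp90b1 with Pdia3 at 0.46. The part of depth beyond these values was not tested.

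The transcription factors differed among themselves. Xbp1 had a median rho of 0.27 with the other 9 genes, Atf4 0.09 and Ddit3 -0.10, beside 0.19 for Hspa5. Xbp1 had 3 of the other 9 genes at or above 0.4, namely Pdia3 at 0.50, Atf4 at 0.45 and Hspa5 at 0.41, against 5.86% of genes. Given relative depth these were 0.34, 0.41 and 0.20. Without cells 20 and 23 they were 0.42, 0.39 and 0.30. By prefix, rho of Xbp1 with Atf4 was 0.31 in the JCb5.2 cells and 0.90 in the JCb6 cells. Ddit3 had no gene of the set at 0.4. Its rho with Hspa5 was -0.37, and it was -0.23 in the JCb5.2 cells, -0.69 in the JCb6 cells, -0.28 without cell 17 and -0.48 given relative depth. Cell 2, with 968 FPKM of Hspa5, had the lowest Ddit3, and cell 17, with the lowest Hspa5, had the highest. Cells 3 and 20 went the other way, with 9.97 and 33.1 FPKM of Ddit3 beside Hspa5 at 1154 and 799.

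Over all 45 pairs the median rho was 0.10, from -0.38 for Pdia4 with Atf4 to 0.83 for Hspa5 with Pdia3. The median was 0.10 in the JCb5.2 cells, 0.12 in the JCb6 cells and 0.00 given relative depth. Of the 45 pairs, 8 reached 0.4, or 6 without cell 17, 6 without cell 23 and 5 given relative depth. Of the 8 only Canx with Pdia4, at 0.49, held neither Hspa5, Pdia3 nor Xbp1. For comparison, the share of all 6481 genes at 0.4 or more with a member ran from 1.79% for Ddit3 to 9.07% for Hspa5. The median rho of those genes with a member ran from -0.04 for Ddit3 to 0.09 for Canx. Calr and Sdf2l1 had no pair at 0.4. Among the genes with a complete promoter element, rho of Calr was 0.06 with Hspa5, 0.15 with Hsp90b1 and 0.01 with Canx. The remaining pairs of these genes were higher: Hspa5 with Hsp90b1 at 0.60, Hspa5 with Canx at 0.45 and Hsp90b1 with Canx at 0.27.

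**Figure D3:**
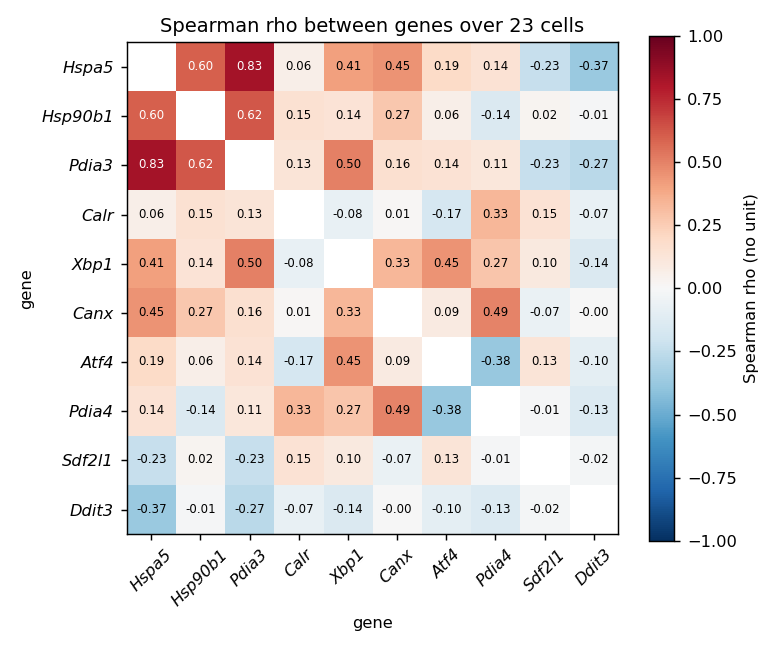
Spearman's rho between each pair of the 10 genes over 23 cells, printed in each square and coloured from -1 (blue) to 1 (red). The trio Hspa5, Hsp90b1 and Pdia3 holds the 3 squares at 0.6 or above, at 0.60, 0.62 and 0.83, and Calr, Sdf2l1 and Ddit3 have no square at 0.4.

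**Figure D4:**
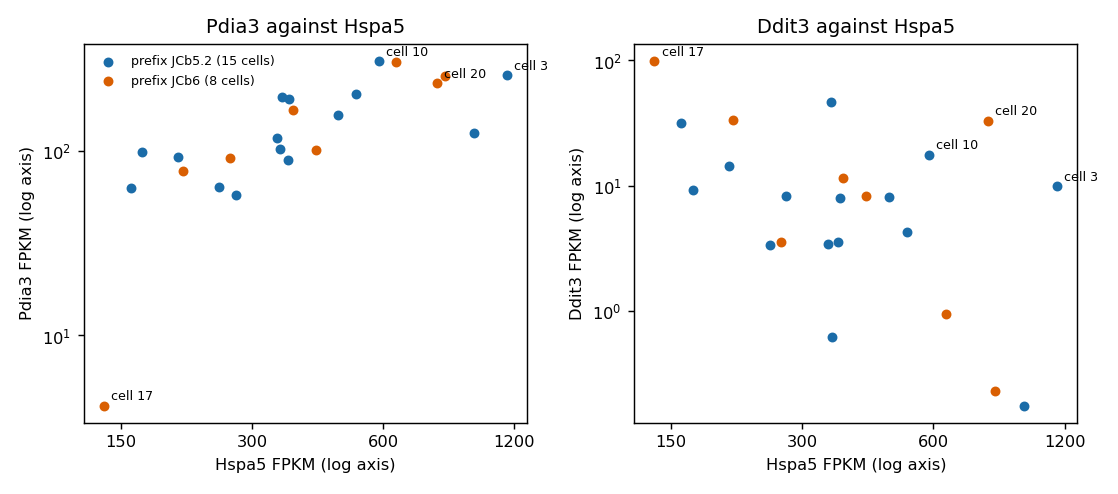
FPKM of Pdia3 (left) and of Ddit3 (right) against FPKM of Hspa5, 1 point per cell on log axes, coloured by title prefix, with cells 3, 10, 17 and 20 named. Pdia3 goes with Hspa5 (rho 0.83) and Ddit3 goes weakly against it (rho -0.37), with cell 17 at the end of both plots.

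The genes most like each member, by rho over the 23 cells among genes at 1 FPKM in 12 or more cells with loci of at least 300 bp, differed from member to member. For Hspa5 they were Pdia3 (0.83), Ddost (0.81), a subunit of the oligosaccharyltransferase that glycosylates chains entering the ER, and Hnrnpk (0.79), an RNA-binding protein. For Pdia3 they were Hspa5, Gps1 (0.76) and Tspan13 (0.75). For Hsp90b1 they were Pcnp (0.81), Ube2v2 (0.81) and Zfp948 (0.71). Sdf2l1 was nearest to Lamtor3 (0.71), Ndufv2 (0.70) and Kcnc2 (0.69). Calr was nearest to Bop1 (0.67), Cmpk1 (0.66) and Sdf4 (0.65), a calcium-binding protein of the Golgi. Canx was nearest to Ddx3y (0.75), a Y-linked gene, Klhl21 (0.73) and Prkar1a (0.71). Pdia4 was nearest to Wnk1 (0.76), Tuba1b (0.72) and Zfx (0.69). The factors had other neighbours again: Xbp1 had Elovl5 (0.79), a fatty acid elongase of the ER, and Hmgn1 (0.75). Atf4 had 2810407C02Rik (0.76), Nhp2l1 (0.66) and Cisd2 (0.65), an ER membrane protein. Ddit3 had Maea (0.75), Usp20 (0.66) and Rgag4 (0.65). These genes were picked for being high.

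Of the 10 genes, 2 differed by 1 or more in mean log2(FPKM + 1) between the title prefixes. Pdia4 was higher in the JCb5.2 cells, with means of 4.06 and 2.22, a difference of 1.84, and medians of 36.9 and 0.581 FPKM. It was at or above 1 FPKM in 13 of 15 JCb5.2 cells and in 3 of 8 JCb6 cells. Atf4 was higher in the JCb6 cells, with means of 3.53 and 5.17, a JCb5.2 minus JCb6 difference of -1.63, and medians of 18.2 and 37.5 FPKM. Of the 6482 genes, 14.3% were higher by that much in the JCb5.2 cells and 4.74% in the JCb6 cells, together 19%. The other 8 genes differed by at most 0.48, the value of Canx, and the ranges of all 10 overlapped between prefixes. Leaving out each cell in turn gave 1.54 to 2.32 for Pdia4, and for Atf4 -2.13 without cell 17 and -1.35 without cell 20. Without cells 20 and 23 the differences were 1.17 for Pdia4 and -1.38 for Atf4.

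A wider set of 82 genes in 7 lists, covering other chaperones, isomerases, glycan enzymes, translocation, degradation, sensors and the ATF4 and CHOP pathway, was read in the same way. Of these, 21 were at 1 FPKM in all 23 cells and 59 in 12 or more. Of all 23373 genes, 7.20% were at that level in all 23 cells, and 6482 genes in 12 or more. Within the 82, Cdnf and Nupr1 reached 1 FPKM in none. The most abundant were Selk at a median of 451 FPKM, Erp29 at 329, an ER folding factor related to the isomerases, and Sec61b at 310, a subunit of the channel through which chains enter the ER. The channel subunit Sec61g was at 272 and the signal peptidase subunits Spcs1 and Sec11c at 280 and 226. P4hb, the founding disulfide isomerase, was at 95.2 and Pdia6 at 89.2. Among co-chaperones Sdf2, the close relative of Sdf2l1, was at 88.1, the BiP co-chaperone Dnajb9 at 54.8, the secreted stress factor Manf at 39.0 and Hspa13 at 32.1.

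Transcripts of the sensor genes Ern1, Eif2ak3 and Atf6 were scarce. Ern1, which encodes IRE1, reached 1 FPKM in 7 cells, Eif2ak3, which encodes PERK, in 6, and Atf6 in 9. Atf6b, from the same list, reached it in 17, at a median of 5.15 FPKM. Creb3, another membrane-bound factor of the ER, was present in all 23, at a median of 69.6 FPKM. Of the genes downstream of ATF4 and CHOP, Ppp1r15a, the phosphatase subunit GADD34 that reverses eIF2α phosphorylation, had a median of 56.2 FPKM, the asparagine synthetase gene Asns 25.5, Atf3 8.42 and the cystine transporter gene Slc7a11 4.40. Trib3 and Chac1 reached 1 FPKM in 2 and 10 cells. In the remaining lists the glycan lectin Lman2 and the glucosidase subunit Prkcsh had medians of 26.4 and 25.4 FPKM, and the degradation factors Vcp, Vimp and Os9 116, 67.1 and 55.2.

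Of these 59 genes, 0 had a rho with the peptide sum at or above 0.4, beside 2.96% of all genes. At or below -0.4, beside 4.12% of all genes, there was 1, Herpud1, a membrane protein of ER-associated degradation with a median of 54.2 FPKM and a rho of -0.43. Their median rho was 0.12. By list the median was 0.09 for 10 co-chaperones, 0.13 for 12 isomerases, 0.01 for 5 glycan genes, 0.12 for 14 translocation genes, 0.08 for 11 degradation genes, 0.27 for the membrane-bound factor genes Atf6b and Creb3 and 0.14 for 5 genes of the ATF4 and CHOP pathway. For comparison it was -0.05 for 9 cytosolic heat shock genes and 0.10 for 10 genes of granules and prohormone processing, such as Pcsk1n and Cpe.

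**Figure D5:**
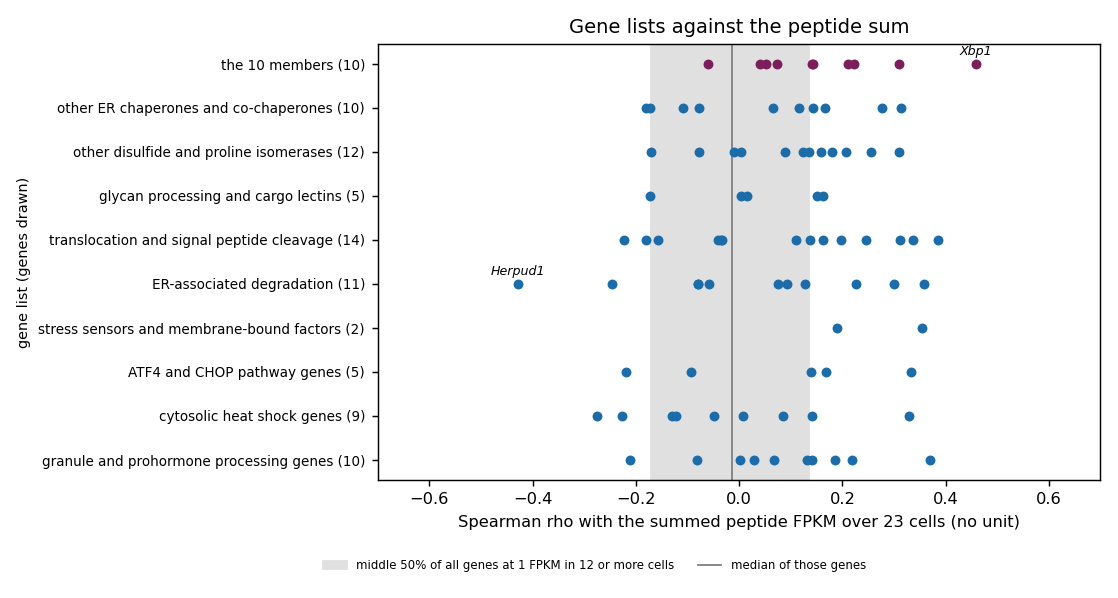
Spearman's rho with the summed peptide FPKM over 23 cells (horizontal axis) for the 10 genes and for the listed genes at 1 FPKM in 12 or more cells, 1 point per gene and 1 row per list. The grey band holds the middle 50% of all 6482 genes and the line is their median of -0.01; Xbp1 at 0.46 and Herpud1 at -0.43 are named.

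Read against Hspa5 in place of the peptide sum, 18 of the 59 genes had a rho of 0.4 or more, or 30.5%, beside the 9.07% of all genes given above. They included Creb3 at 0.71, the signal peptidase subunit Spcs2 at 0.70, Ero1l, the oxidase that recharges the isomerases, at 0.67, the BiP exchange factor Hyou1 at 0.62, Ssr3 at 0.61 and Sdf2 at 0.59. Manf and Fkbp2 were at 0.58, P4hb at 0.57, Dnajb9 at 0.55 and Hspa13 at 0.53. By prefix the count was 11 of 59, or 18.6%, beside 10.9% of all genes in the JCb5.2 cells, and 29 of 59, or 49.2%, beside 27.1% in the JCb6 cells. Given relative depth it was 13 of 59 beside 6.05%, and without cells 20 and 23 it was 15 of 59, beside 9.60%. The cytosolic chaperone Hspa8, at a median of 2148 FPKM, had a rho of 0.61 with Hspa5, and 1 of 9 cytosolic heat shock genes reached 0.4. Of 10 granule and prohormone processing genes, 2 did. In the JCb5.2 cells 3 of 9 heat shock genes (33.3%) and 2 of 10 granule genes (20%) did. In the JCb6 cells it was 2 of 9 (22.2%) and 6 of 10 (60%). Within each prefix, at least 1 of these lists had a larger share than the 59 ER genes. Xbp1 had 11 of the 59 genes at or above 0.4, or 18.6%, beside the 5.86% of all genes given above. Without cell 17 it had 5, or 8.47%, beside 4.54%, and given relative depth 3, or 5.08%, beside 4.12%, a share near that of all genes. By prefix Xbp1 had 1 of 59, or 1.69%, beside 7.62% in the JCb5.2 cells, and 30 of 59, or 50.8%, beside 26.6% in the JCb6 cells. The co-chaperone Dnajc10, at 1 FPKM in 19 cells, went the other way, with a rho of -0.50 with Hspa5 and -0.64 with Xbp1.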

How the data were processed

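Per the labels' protocols, single GFP-positive neurons were picked by hand and their polyadenylated RNA was amplified with SmartSeq2, with libraries made by the NuGen Ovation Rapid kit. Per the submitters' processing notes, CASAVA 1.8, TopHat and Cufflinks were used with mm10. Neither an annotation, nor filters, nor versions of TopHat or Cufflinks are given in the sources used here. A single table of FPKM values was deposited. FPKM divides by length and by mapped fragments, so abundant peptide transcripts lower the other values of a cell, and without molecular identifiers amplified copies count as reads.

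Of 23896 rows, 12 spreadsheet summaries, 286 identical copies and 27 rows with names turned into dates were left out, and rows of 124 symbols were summed. Coordinates are 1-based, on mm10, with types from GENCODE M21. Relative depth was the modal ratio of FPKM values under 0.5, in loci of 500 bp or more, between a cell and cell 12; absolute depth is unknown. Spearman's rho was computed across cells, also as a partial rho. Log values are log2(FPKM + 1). The correlation and depth scripts were tested on simulated data.

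The 10 genes and the lists were chosen with earlier results of these data known. Named genes were all 10, the top 4 of each list by median FPKM, list genes with a rho of 0.4 or more in size, and the 3 nearest genes of each member with loci of at least 300 bp; further genes named for their rho with Hspa5, for cells in which they were scarce or as markers were picked after their values were seen. A few genes picked out by these rules are not reported here. With 1 group of cells no test was run. Calculations were run in scipy 1.17.1, pandas 2.3.3 and numpy 2.4.6 under Python 3.11.15, with figures from matplotlib 3.10.9.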

Additional observations from a re-analysis of the deposited data

How the results depend on the processing

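The number of the 10 genes at 1 FPKM in all 23 cells, 5, became 2 at 5 FPKM, beside 7.20% and 4.02% of all genes. The number with prefix means 1 or more apart, 2, became 1 with a pseudocount of 10, beside 19% and 2.42% of genes. The other 43 recomputed summary values stayed within 1.5 times (counts) or 0.1 (rho) of those reported. They covered other thresholds, 3 rescalings, each prefix alone, other peptide sums, Pearson's r and partial rho. In the JCb6 cells the count at 0.4 with the peptide sum stayed at 1, but the gene was Hsp90b1 in place of Xbp1. The median rho between pairs went from 0.10 to 0.00 given relative depth. Leaving out each cell in turn was not among these values. It took the count at 0.4 with the peptide sum from 1 to 0 without cell 6 or cell 7. The alternatives without cells 17, 20 or 23, with each cell left out in turn, with relative depth and with low peptide values removed were chosen after the data were seen. The rho of Xbp1 with the peptide sum, the 1 value called over all cells, was above 0 in every setting run. That of Pdia4 was 0.22 over all cells and -0.55 in the JCb6 cells, of which 3 reached 1 FPKM of Pdia4. Of the values of single genes and pairs, 171 stayed within these limits and 33 moved further. No paired analysis was possible because the cells form a single group. The 23 cells, of 2 mice not tied to cells, limit every correlation, and the 8 JCb6 cells most of all; genes listed at 0 in a cell may have been missed at its depth.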
